A study of Arabidopsis thaliana with 3 samples.

Results

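The genes described here are 10 regulators of flowering time and of inflorescence identity in Arabidopsis thaliana, chosen by name: FLC, SVP, AGL24, SOC1, FUL, CAL, MAF1 (also called FLM), FT, TFL1 and FD. They were looked up among 26810 genes with a value in any of 3 expression tables, and 9 of the 10 were found. MAF1 (AT1G77080), a relative of FLC that represses flowering, has no row in the tables used here, like 994 of the 27444 nuclear protein-coding genes of the TAIR10.1 annotation. The selection rule reads a missing row as 0, but a missing row is no measurement of a level, and MAF1 is not analysed further here.

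All libraries came from immature inflorescences (bud tissue) of dcl1-7 plants about 4 weeks old, grown in days of 16 h light and 8 h dark and not otherwise treated. The allele dcl1-7 is a partial loss-of-function mutation of DCL1, the Dicer enzyme that releases most plant microRNAs, and every group carries it, so no comparison with another genotype was made. PolyA RNA was sequenced in 2 RNA-seq libraries and in 1 library of GMUCT, a method that captures the 5′ ends of polyA RNAs without a cap, which are intermediates of decay or products of cleavage. Values are RPKM as deposited by the authors, which divide reads by the length of the gene and by sequencing depth. GMUCT captures 5′ ends, so division by length may not make GMUCT levels of genes of different length comparable. Some ratios are therefore also given with a trend with length removed. RNA-seq values are given for both libraries and as mean ± SD, while each GMUCT value is a single measurement without a replicate error.

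In Arabidopsis the floral transition is decided between repressors and activators that meet at a few integrator genes. FLC, MAF1 and SVP are MADS-box transcription factors that hold back FT and SOC1 in the vegetative plant, and FT, a small protein made in the phloem of leaves under long days, moves to the shoot apex, where it acts with the bZIP factor FD. The MADS-box factors SOC1, AGL24 and FUL promote the transition at the apex, CAL then acts beside its close relative AP1 in young floral meristems, and TFL1, a relative of FT with the opposite effect, keeps the inflorescence tip indeterminate. Inflorescences have passed this transition, so the genes are seen here after the switch that they control.

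The labelled tissue was checked against 9 markers of inflorescence and flower, of which 8 were above 0 in both RNA-seq libraries, with sums of 443.9 and 444.9 RPKM by RNA-seq and 372.95 RPKM by GMUCT. CLV3, the peptide gene of shoot stem cells, was missing from both RNA-seq tables. Phloem companion cell markers were present throughout (5 of 5, summed level 102.9, 103.02 and 53.6 RPKM), as were those of photosynthetic tissue (4 of 4, 8811, 8505 and 6627 RPKM) and pollen (3 of 3, 342.8, 350.3 and 167.3 RPKM). Of 3 root hair and 3 mature seed markers, 1 each was above 0 in RNA-seq, with sums of at most 1.74 and 0.24 RPKM, while all 3 of each were above 0 in GMUCT, with sums of 2.69 and 1.85 RPKM. In such a bulk sample fewer cells of a type and less RNA per cell cannot be told apart. The spacing of low RPKM values gave a depth of about 18500000, 8900000 and 19400000 reads for RNA-seq library 1, RNA-seq library 2 and GMUCT.

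FUL (AT5G60910), which shapes the inflorescence and later the fruit valves, had by far the highest mRNA level of the 9 genes. Its libraries read 14.63 and 13.95 RPKM, with a mean of 14.29 ± 0.481 RPKM (SD, n = 2), and the lower of its library values was above every RNA-seq value of the other 8. FUL alone made up 40.9% and 40.1% of the summed RPKM of the 9 genes in RNA-seq. Among the 24186 genes above 0 in RNA-seq it stood at percentile 73.2, and it was the only one of the 9 above the median gene, which had 6.03 RPKM.

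The other genes formed steps below FUL. SVP (AT2G22540), a repressor that acts together with FLC, had 5.35 and 4.59 RPKM, a mean of 4.97 ± 0.537 RPKM, and SOC1 (AT2G45660), the integrator, had 4.72 and 4.83 RPKM, a mean of 4.78 ± 0.0778 RPKM. The library values of these 2 genes overlapped, so their order is not resolved. CAL (AT1G26310), the floral meristem identity factor, followed at 3.61 and 3.72 RPKM, a mean of 3.67 ± 0.0778 RPKM, clear of the genes on either side.

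A group of 3 genes lay together near 2 RPKM. FD (AT4G35900), the partner of FT and TFL1, had 2.09 and 2.21 RPKM, a mean of 2.15 ± 0.0849 RPKM. FLC (AT5G10140), the repressor that is silenced by vernalization, had 1.84 and 2.26 RPKM, a mean of 2.05 ± 0.297 RPKM, a range that held both values of FD. AGL24 (AT4G24540), the closest relative of SVP among the 10 and an activator of flowering, had 2.05 and 1.99 RPKM, a mean of 2.02 ± 0.0424 RPKM. The values of FLC also enclosed those of AGL24, so the order within this group is not resolved either, whereas FD lay above AGL24 in both libraries.

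The lowest levels belonged to FT and TFL1, relatives within the family of phosphatidylethanolamine-binding proteins. TFL1 (AT5G03840) was listed at 0.80 and 0.89 RPKM, a mean of 0.845 ± 0.0636 RPKM, and FT (AT1G65480) at 0.68 and 0.37 RPKM, a mean of 0.525 ± 0.219 RPKM. Both values of TFL1 were above both values of FT. At the estimated depth the FT values rest on about 12.3 reads in library 1 and 3.21 in library 2, and those of TFL1 on about 12.9 and 6.89, so the 1.84-fold gap between the FT values is a difference between very few reads. For the 7 genes above them the libraries were within 1.23-fold of each other, and the gap was widest for FLC.

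**Figure D1:**
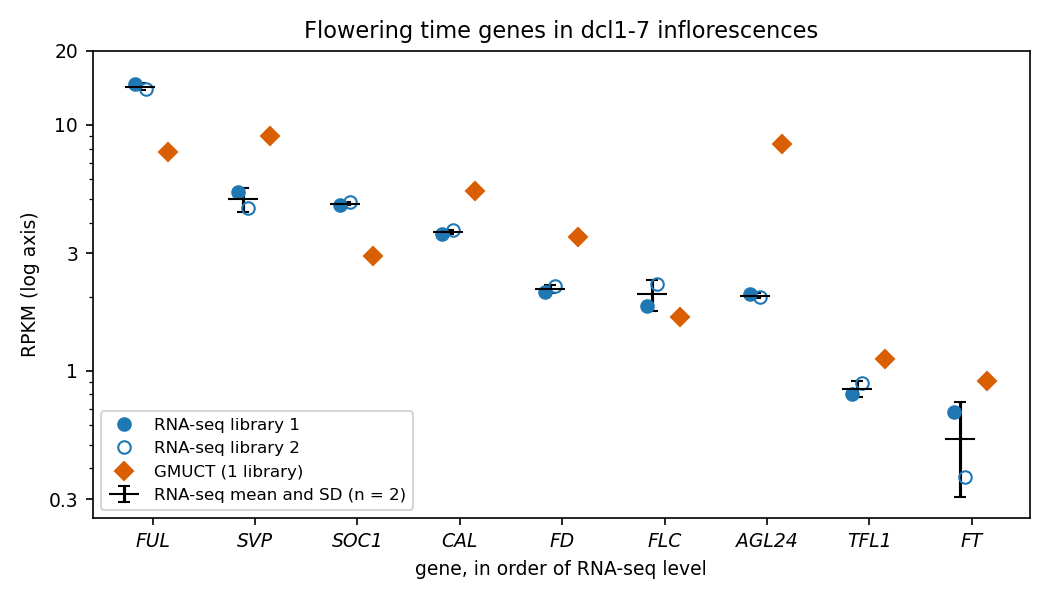
Level of the 9 listed genes in RPKM on a log axis, in order of RNA-seq mean. Blue circles are the RNA-seq libraries (filled, library 1; open, library 2), black bars their mean and SD (n = 2), and orange diamonds the single GMUCT library. FUL is highest in RNA-seq at 14.29 RPKM, while SVP and AGL24 are highest in GMUCT at 9.01 and 8.37 RPKM.

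GMUCT gave another order of the same genes. SVP at 9.01 RPKM and AGL24 at 8.37 RPKM were highest, ahead of FUL at 7.76 RPKM, CAL at 5.40 RPKM, FD at 3.49 RPKM, SOC1 at 2.92 RPKM and FLC at 1.66 RPKM. TFL1 at 1.11 RPKM and FT at 0.91 RPKM were again lowest. AGL24 moved from rank 7 in RNA-seq to rank 2 in GMUCT, SOC1 from rank 3 to rank 6, and FUL kept only 19.1% of the summed GMUCT level. With 1 GMUCT library, neighbours in this order cannot be set against a replicate spread.

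The comparison of GMUCT with RNA-seq asks whether a gene takes a larger or smaller share of the GMUCT reads than of the RNA-seq reads. Each library is scaled to its own depth and the assays differ in protocol, so the amount of uncapped RNA per mRNA is not measured. Higher or lower in GMUCT refers to these shares. The comparison was made for all 20214 genes with a mean of both assays of at least 1 RPKM. It used a log2 ratio of RPKM + 0.5, a scale that understates the changes of low genes. The test was limma with Benjamini-Hochberg adjustment over all these genes and a threshold of 0.05. It has 1 residual degree of freedom and takes the lone GMUCT library to vary like the RNA-seq libraries, for which the labels do not say whether they came from separate plants, so its p-values measure only a spread that may be technical. An exact permutation test of 2 libraries against 1 could not go below p = 0.333. Across all tested genes 69.0% were called, 32.1% higher and 36.9% lower in GMUCT, so a call by itself sets a gene apart little. A size rule without that assumption, a gap of 2-fold or more to each RNA-seq library on the same scale, was met by 19.9% of all tested genes above and 17.3% below. The log2 ratios had an SD of 1.36 over all tested genes, against 0.22 for the log2 ratio of the RNA-seq libraries to each other.

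Of the 10 genes 7 could be tested, 4 were called higher and 2 lower in GMUCT, and FLC did not pass. FT and TFL1 fell below the filter and MAF1 had no row. The calls are read against the 69.0% of all tested genes that were called, which leaves little to read from a count over 7 genes. The median log2 ratio of the 7 was 0.50, beside -0.07 over all tested genes. Only AGL24 met the 2-fold rule, and none of the 7 was 2-fold below.

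AGL24 had the highest ratio of the 7. Its GMUCT value was 4.14 times its RNA-seq mean in RPKM, and the log2 ratio of 1.82 (SE 0.10; adjusted p = 0.00597, limma) placed it at percentile 89.1 of all tested genes. It lay above library 1 by 1.80 and above library 2 by 1.83 on the log2 scale. SVP, its relative, had 1.81 times as much in GMUCT, or 0.80 on the log2 scale (SE 0.14; adjusted p = 0.0301, limma). AGL24 and SVP thus had RNA-seq means of 2.02 and 4.97 RPKM but GMUCT values of 8.37 and 9.01 RPKM. The call for SVP was lost when genes of low level were kept in the test (limma adjusted p = 0.0644), with the same ratio.

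FD and CAL lay on the same side. The GMUCT value of FD was 1.62 times its RNA-seq mean, or 0.59 on the log2 scale (SE 0.10; adjusted p = 0.0267, limma), and it exceeded both library values. With low genes kept in the test its limma adjusted p was 0.0509. CAL was at 1.47 times its RNA-seq mean, or 0.50 on the log2 scale (SE 0.10; adjusted p = 0.0375, limma). The call for CAL was lost once a trend of the ratio with transcript length was removed (0.27, limma adjusted p = 0.137), and also with a trend with GC content removed (0.34, limma adjusted p = 0.0821).

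FUL and SOC1 were lower in GMUCT. FUL had 1.84 times as much RPKM in RNA-seq as in GMUCT, with a log2 ratio of -0.84 (SE 0.08; adjusted p = 0.00985, limma) at percentile 23.5 of all tested genes. SOC1 had 1.64 times as much in RNA-seq, or -0.63 on the log2 scale (SE 0.10; adjusted p = 0.0251, limma), and its ratio was -1.16 with the GC trend removed, the largest shift of any of the 7 among the settings tried. SOC1 had the lowest GC content of the 9 listed genes, 36.3%, beside a median of 41.2% over all tested genes.

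FLC had 1.66 RPKM in GMUCT, below both RNA-seq values, with a ratio of -0.23 on the log2 scale (SE 0.15; adjusted p = 0.275, limma). The difference from library 1 was -0.12 and from library 2 -0.35 on the log2 scale, so the spread between libraries was as wide as the effect. The annotation places the noncoding gene AT5G01675, the antisense transcript of FLC, on the opposite strand of the same locus. The reads are strand-specific per the labels, but the strand setting of the authors' counting is not given in the sources used here, so sense and antisense reads of FLC cannot be told apart in these values. None of the other 9 genes overlaps an annotated gene, and none of the 10 has a BLAST match of at least 95% identity elsewhere in the genome.

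**Figure D2:**
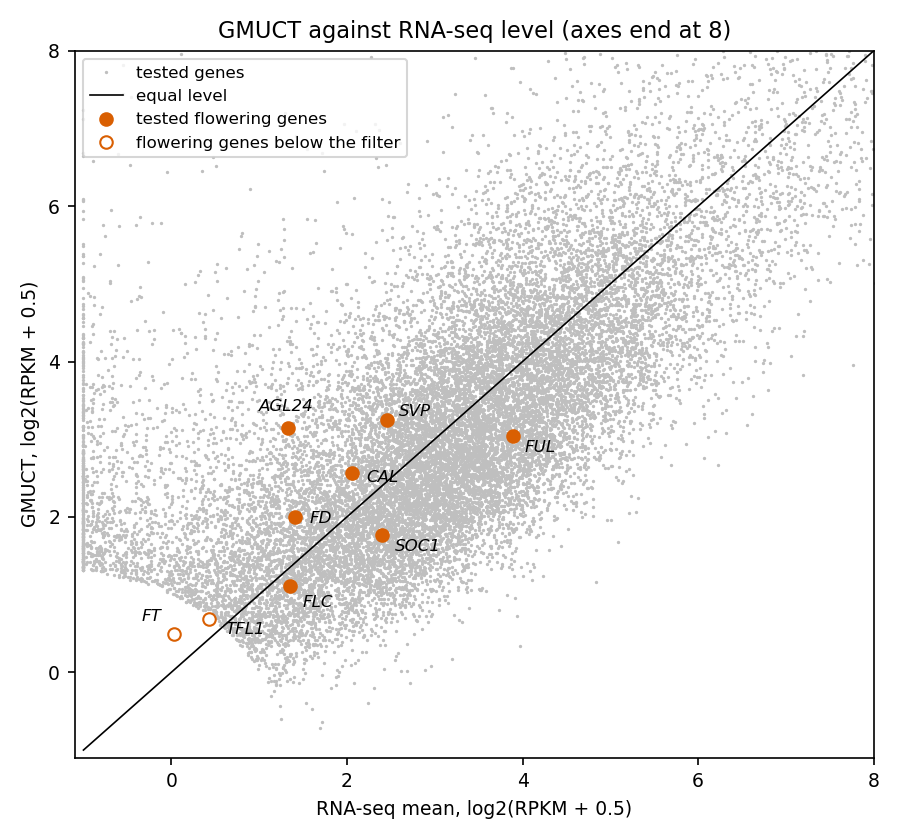
GMUCT level against RNA-seq mean, both as log2(RPKM + 0.5), for the tested genes (grey dots), the 7 tested flowering genes (filled orange) and FT and TFL1, which fell below the filter (open orange). The line marks equal levels and the axes end at 8. AGL24, SVP, CAL and FD lie above the line, FUL, SOC1 and FLC below it.

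**Figure D3:**
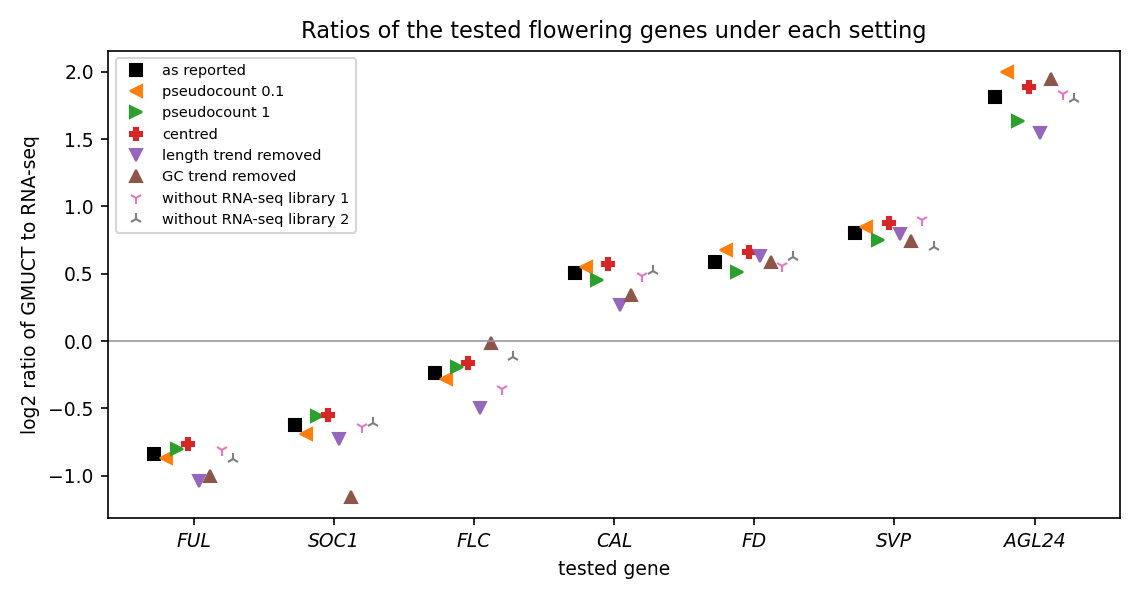
Log2 ratio of GMUCT to RNA-seq for the 7 tested genes, as reported (black squares) and under 7 other settings of scaling or with 1 RNA-seq library left out. No gene crosses 0 under these settings. FLC comes closest, at -0.02 with the GC trend removed.

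FT and TFL1 were listed in GMUCT at 0.91 and 1.11 RPKM, above both of their RNA-seq values, from about 17.2 and 18.7 estimated reads. Those levels are within reach of genes with no RNA-seq value above 0. Most of these genes have no RNA-seq row, which is no measurement of a level, so they need not lack mRNA. A total of 2624 genes were above 0 in GMUCT and at 0 or missing in both RNA-seq tables, with a median of 0.48 RPKM and a 75th percentile of 1.08 RPKM. Of these, 786 (30.0%) had at least the GMUCT value of FT, 645 (24.6%) at least that of TFL1 and 418 (15.9%) at least that of FLC. No test was made for FT and TFL1 in the comparison as filtered. Without the filter their log2 ratios were 0.48 (limma adjusted p = 0.298) and 0.26 (limma adjusted p = 0.113).

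**Figure D4:**
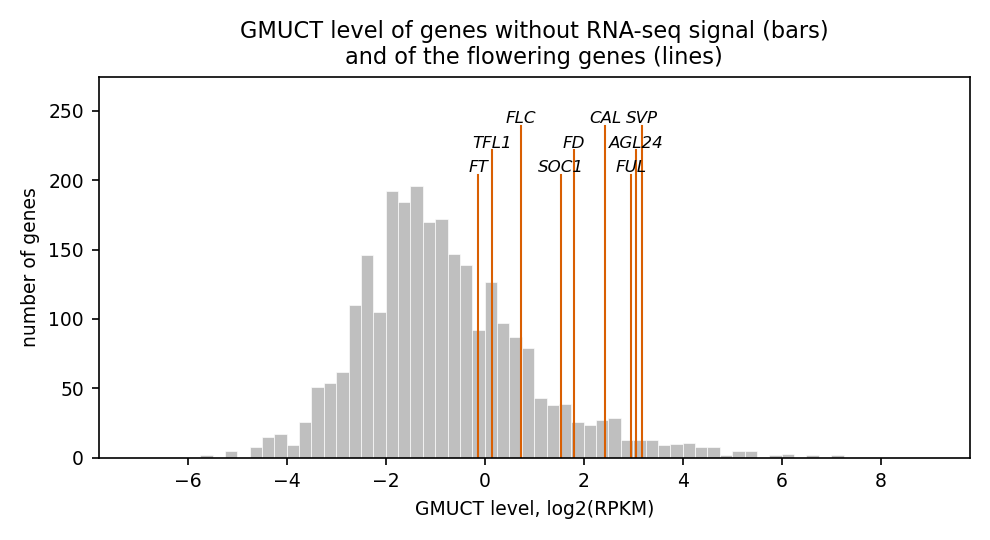
GMUCT level, as log2(RPKM), of the 2624 genes at 0 or missing in both RNA-seq tables (grey bars, number of genes per bin) and of the 9 flowering genes (orange lines). FT at 0.91 RPKM and TFL1 at 1.11 RPKM fall within the body of the bars, whose median is 0.48 RPKM, while SVP, AGL24 and FUL lie far to the right of it.

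In gene structure, FLC and SOC1 have 7 exons, FUL and CAL 8, and SVP and AGL24 9, whereas FT and TFL1 have 4 and FD has 2 (longest transcript, TAIR10.1 annotation). Exon lengths ran from 870 nt for TFL1 to 1867 nt for FD, and 7 of the 9 were shorter than the median tested gene of 1729 nt. AGL24 (1155 nt) and SVP (1791 nt), the genes with 9 exons, were both higher in GMUCT, and FUL (1303 nt) and CAL (1238 nt), with 8 exons each, lay on opposite sides of 0. A relation of the ratios with exon number was not tested.

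The gene of the surrounding pathways with the most similar pair of levels was named for each of the 7, by distance in the plane of both log2 levels over the 3 libraries and 68 candidates. SOC1 was closest to FES1, an activator of FLC (4.93 ± 0.629 and 2.53 RPKM, distance 0.18), FUL to CDF5, a repressor in the photoperiod pathway (14.02 ± 2.02 and 6.83 RPKM, distance 0.17), and SVP to FRL1, a FRIGIDA relative (5.10 ± 0.580 and 7.76 RPKM, distance 0.21). CAL was closest to MFT, a relative of FT and TFL1 (4.06 ± 0.0495 and 6.11 RPKM, distance 0.21). FLC was closest to PNF, a homeobox gene of the inflorescence (2.56 ± 0.120 and 1.68 RPKM, distance 0.26), and FD to LMI1, a homeobox gene downstream of LFY (2.61 ± 0.361 and 2.44 RPKM, distance 0.50). AGL24 had no such near match: the closest was again MFT, at a distance of 0.95.

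The regulators around these genes were taken from 7 lists of 68 genes in all, of which 55 could be tested. By limma 27 of the 55 (49.1%) were lower in GMUCT, 10 (18.2%) were higher and 18 did not pass. Of all tested genes 36.9% were lower and 32.1% higher. There were 10 genes 2-fold below and 5 genes 2-fold above both RNA-seq libraries, beside 17.3% and 19.9% of all tested genes. CIB1 and AGL14, described below, entered the test only through their GMUCT values, which fixed their side. Over the 53 genes with an RNA-seq mean of at least 1 RPKM, 27 (50.9%) were lower and 8 (15.1%) higher. This setting was added after the data were seen. Of all 18510 genes of that level 40.3% were lower and 26.8% higher. By the 2-fold rule 3 of the 53 lay above, beside 2601 of the 18510. The balance changed with the setting. With the length trend removed 20 were lower and 12 higher, beside 34.1% and 32.4% of all genes. Without the filter 18 of 68 were lower and 16 higher, beside 23.6% and 33.9% of all genes. Genes with no RNA-seq row, such as BFT, ATC and AGL72 on the lists, entered both shares, and only the high side was open to them. The median log2 ratio of the 55 tested regulators was -0.47, beside 0.50 for the 7 genes above and -0.07 over all tested genes. The listed regulators are longer, with a median exon length of 2025.5 nt, and with the length trend removed their median was -0.28, beside 0.27 for the 7. With the GC trend removed the median was -0.61 for the regulators and 0.34 for the 7. Several of the regulators named here overlap a gene on the opposite strand (FRI, FES1, PIE1, EFS, VIN3, CDF5, MFT, BFT, LHP1) or on the same strand (CIB1), and their values may include reads of the neighbour.

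The paralogs of FLC in the MAF cluster spanned a wide range. MAF2, at 18.52 and 19.01 RPKM, was above every one of the 9 flowering genes in RNA-seq, and its GMUCT value was 10.88 RPKM (log2 ratio -0.76, SE 0.06; limma adjusted p = 0.00852), a call that was lost with the length trend removed (-0.19, limma adjusted p = 0.0771). MAF3 had 7.25 and 7.16 RPKM and 6.11 RPKM in GMUCT, without passing the test. With the GC trend removed the ratios were -1.62 for MAF2 and -0.65 for MAF3. Of their longest transcripts 70.1% and 68.8% matched other places in the genome at 80% identity or more. MAF4 and MAF5 were below the filter, at RNA-seq means of 0.430 ± 0.0283 and 0.340 ± 0.0141 RPKM, so that FLC itself lay between the upper and the lower pair in both RNA-seq libraries.

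Among activators of FLC, which include the FRIGIDA complex and chromatin factors, 8 of 13 were called lower in GMUCT and 1 higher. The other 4 did not pass (median log2 ratio -0.92). Of all tested genes 36.9% were called lower and 32.1% higher. With the length trend removed 6 were lower and 2 higher (median -0.47), beside 34.1% and 32.4% of all genes. The chromatin remodeller PIE1 went from an RNA-seq mean of 8.63 ± 0.255 RPKM to a GMUCT value of 2.75 RPKM (log2 ratio -1.49). The histone methyltransferase EFS had 9.32 ± 0.891 and 3.10 RPKM (-1.44). With the length trend removed these ratios shrank to -0.40 for PIE1 and -0.47 for EFS, and the call for EFS was lost (limma adjusted p = 0.0626). VIP6, a subunit of the PAF1 complex, was the one on the high side, with 10.4 ± 0.474 and 25.94 RPKM (1.28). FRL1 had the next highest ratio (0.56) and did not pass. FRI itself, which raises FLC, had 4.25 ± 0.410 and 3.61 RPKM and did not pass.

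Repressors of FLC, the autonomous and vernalization genes, had 7 of 11 genes called lower and 2 higher, while 2 did not pass (median -0.91). Of all tested genes 36.9% were called lower and 32.1% higher. The balance among the repressors was lost with the length trend removed, where 5 were lower and 4 higher (median -0.40). In that setting 34.1% of all genes were lower and 32.4% higher. The RNA-binding protein FLK had 16.9 ± 0.247 and 4.03 RPKM (-1.94), and FY, a polyadenylation factor, had 6.51 ± 0.629 and 1.88 RPKM (-1.55). VRN1, a DNA-binding protein of vernalization, was higher, at 13.3 ± 0.424 and 21.72 RPKM (0.68). VIN3, which cold induces, was low in both assays, at 1.35 ± 0.106 and 2.03 RPKM (0.46), and its call was lost without the filter (limma adjusted p = 0.0817).

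Among the photoperiod genes that control FT, 11 had an RNA-seq mean of at least 1 RPKM. Of these, 6 were called lower and 1 higher, and 4 did not pass, beside 40.3% lower and 26.8% higher over all genes of that level. The median over the 12 tested was -0.74, and -0.38 with the length trend removed. SPA1 and COP1, partners in a ubiquitin ligase that removes CO, had mRNA means of 21.7 ± 0.693 and 16.4 ± 0.445 RPKM and GMUCT values of 6.62 and 5.58 RPKM (-1.64 and -1.47). TEM1, a repressor of FT, was higher at 7.16 ± 0.318 and 9.66 RPKM (0.41), a call lost with the length trend removed (limma adjusted p = 0.0532). CIB1, an activator of FT, was listed at 0.03 RPKM in RNA-seq library 1, had no row in library 2 and reached 5.02 RPKM in GMUCT, and it passed the filter only through GMUCT.

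The relatives of FT, TFL1 and FD were at low levels. TSF, the closest relative of FT, was at 0.07 and 0.10 RPKM by RNA-seq and 0.18 RPKM by GMUCT, below the values of FT in each library. BFT and ATC, relatives of TFL1, had no RNA-seq row and 0.63 and 0.18 RPKM in GMUCT. MFT was higher in GMUCT (0.54; limma adjusted p = 0.0319), a call lost with the length trend removed (limma adjusted p = 0.0626), and FDP, the relative of FD, had 2.47 ± 0.424 and 2.10 RPKM without passing.

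Of 10 other MADS-box genes linked to flowering 4 were tested with an RNA-seq mean of at least 1 RPKM. Of these, 1 was called higher, 1 lower and 2 did not pass, beside 26.8% higher and 40.3% lower over all genes of that level. AGL6 had an mRNA mean of 6.19 ± 0.601 RPKM and a GMUCT value of 24.70 RPKM (log2 ratio 1.92, SE 0.12; limma adjusted p = 0.00683), a ratio close to that of AGL24. AGL42, a relative of SOC1, was lower at 4.22 ± 0.481 and 1.82 RPKM (-1.02), a call lost without the filter (limma adjusted p = 0.0536), and AGL18 (9.10 ± 0.453 and 7.17 RPKM) did not pass. AGL14 was listed at 0.02 RPKM in RNA-seq library 1, had no row in library 2 and reached 5.65 RPKM in GMUCT, passing the filter only through GMUCT. The SOC1 relatives AGL71 and AGL72 stayed below the filter, with 0.06 and 0.22 RPKM in RNA-seq for AGL71 and no RNA-seq row for AGL72.

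Genes of floral meristem identity and inflorescence architecture were spread to both sides, with 4 of 10 tested lower, 2 higher and 4 not past the test. Over all tested genes 36.9% were lower and 32.1% higher. The median of the 10 was -0.09, with -0.12 after removal of the length trend and 0.01 after removal of the GC trend. AP1, the close relative of CAL, had library values of 64.29 and 54.08 RPKM, with a mean of 59.2 ± 7.22 RPKM, and its GMUCT value was 32.15 RPKM (-0.86, SE 0.14; limma adjusted p = 0.0259). Its call was lost without the filter (limma adjusted p = 0.0704). AP1 and FUL were thus lower in GMUCT by about the same ratio, while CAL lay on the high side of 0, and the difference between CAL and its relatives was not tested. The receptor kinase gene ER had 87.7 ± 3.27 and 18.70 RPKM (-2.20), and PNY, a homeobox gene of stem and inflorescence pattern, had 14.8 ± 0.672 and 68.34 RPKM (2.17). LHP1, a chromatin protein that keeps FT repressed, was higher, with library values of 9.72 and 10.28 RPKM and a GMUCT value of 15.39 RPKM (0.60). LFY, the master gene of floral fate, had library values of 1.00 and 1.63 RPKM and a GMUCT value of 0.67 RPKM, and fell below the filter.

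**Figure D5:**
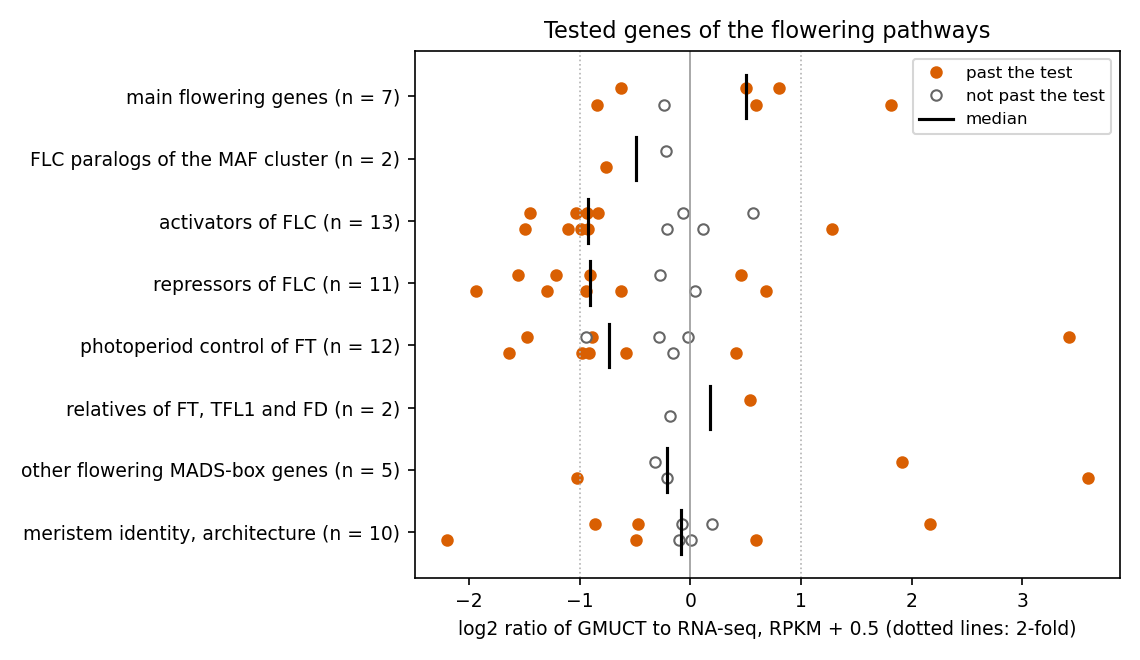
Log2 ratio of GMUCT to RNA-seq for the tested genes among the 10 flowering genes (top row) and the 7 surrounding lists, with n tested genes per row. Filled orange points passed limma at 0.05 and open points did not, black bars mark the median, and dotted lines mark 2-fold. The median is 0.50 for the 7 tested flowering genes and -0.92 and -0.91 for activators and repressors of FLC.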

How the data were processed

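The authors deposited 1 table of gene identifiers and RPKM values per library. The tables have no header. Trimming and alignment tools named in the submitters' processing notes are cutadapt 1.4.2 and STAR 2.4.0, and the build is TAIR10. Not given in the sources used here are the counting tool, annotation release, gene lengths and strand setting. Reads were 50 nt, per the labels. A missing row was read as 0.

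Depth was estimated from the steps of the lowest 15% of values times exon length. A position within 0.1 of a whole read was found for 34.4%, 33.7% and 35.3% of them, against 20% by chance, so read numbers are approximate and counting intervals are not given.

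Values were tested as log2(RPKM + 0.5) with the two-sided test of limma 3.58.1 under R 4.3.3 (eBayes with a trend) where the mean of both assays was at least 1 RPKM. The fit was also run on simulated data. Such data cannot show how far repeated GMUCT measurements would spread, so no conclusion about the p-values is drawn from that run. Exon length, GC content and overlaps came from RefSeq's TAIR10.1 annotation, which held 26459 of 26810 identifiers, and copies from BLAST 2.17.0. Its build differs in name from the authors', so no coordinates or sequences are printed. Alternatives covered pseudocounts, filters, centring, length and GC trends (values for 99.3% of tested genes), the eBayes trend, the fold rule and leaving out each RNA-seq library. Counting calls over genes with an RNA-seq mean of at least 1 RPKM was added after the data were seen. The genes and lists were chosen with earlier results of these data known. Named from each list were the 2 highest and 2 lowest ratios. AGL71, AGL72, ATC, BFT, FRI, LFY, MAF4, MAF5 and TSF were named for their roles after their values were seen. Computation used Python 3.11.15 and statsmodels 0.14.6.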

Additional observations from a re-analysis of the deposited data

How the results depend on the processing

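No paired analysis was possible because the title of the GMUCT library names no replicate, so it cannot be matched to an RNA-seq library. Of 66 combinations of a tested flowering gene and a setting, 62 kept direction and, where a test was possible, side of the threshold. With 1 RNA-seq library left out no test was possible, so those combinations count by direction alone. In 4 the call was lost (SVP and FD without the filter, CAL after removal of the length or the GC trend), and none reversed. The cause was not tested. Of 234 for the named regulators, counted in the same way, 219 kept both, 10 lost and 5 gained a call, and none reversed. Without the filter 2 of 9 flowering genes were called higher in place of 4 of 7, and 16 of 68 regulators in place of 10 of 55. Lower were 18 of 68 regulators in place of 27 of 55 (20 of 55 with the length trend removed). Over all genes 33.9% were higher and 23.6% lower without the filter, against 32.1% and 36.9% with it. Regulators with no RNA-seq row could only be higher. At a mean of at least 5 RPKM, where only SVP, AGL24 and FUL were tested, 2 were higher and 1 lower. Over all genes 4778 were higher and 6004 lower in that setting, so 44.3% of all calls were higher. By the 2-fold rule 3 regulators lay above and 9 below, beside 2499 and 2740 of all genes. The numbers of regulators and of all genes tested in that setting are not given here, so these counts cannot be read as shares of the tested genes. At 1.5-fold, 2 of the 7 tested flowering genes lay above and 2 below, beside 5671 and 6075 of all 20214 tested genes. Of the 55 tested regulators 24 lay below at 1.5-fold. At 4-fold, 0 flowering genes lay above. Of the regulators 3 lay above and 1 below at 4-fold, beside 1760 and 395 of all 20214 tested genes. Without the filter 59.0% of all calls were higher, against 46.5% with it. Medians of the MAF cluster and the other MADS-box list turned positive without the filter (0.07 and 0.53). The other MADS-box list then takes in genes with no RNA-seq row, such as AGL72, whose ratio could only be positive. For each tested flowering gene and named regulator the ratios to both RNA-seq libraries had the same sign, so leaving out either library could not reverse it. FT and TFL1 are limited by read number.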
